A study of Homo sapiens with 12 samples.

Results

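The genes described here encode elafin (PI3), secretory leukocyte protease inhibitor (SLPI) and 5 related proteins, WFDC1, WFDC2, WFDC3, WFDC5 and WFDC12. They were chosen by family membership, with earlier results of these data known. PI3 in particular was selected on its array signal, which stood near the top of the measured scale. All probe sets whose only gene symbol in the platform annotation was one of these 7 genes were taken, which gave 10 probe sets of the 54675 on the array. PI3 had 2 probe sets, WFDC2 had 3 and each of the other genes had 1. In a probe set, several short probes to 1 transcript are combined into 1 value. None of the 10 was removed by a filter on low values.

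RNA was taken 48 h after retroviral infection of MCF-10A, an established line of human breast epithelium that does not form tumours. The 4 groups, of 3 arrays each, received NICD, Notch1 L1601P+∆P, wild-type full-length Notch1 or the vector control, and all groups were infected. NICD is the free intracellular domain of the receptor, and the descriptions of its samples add gfp to the name without saying what that stands for. As background, L1601P lies in the heterodimerization domain, by which the receptor subunits stay bound, and ∆P is the usual name for loss of the PEST region, which limits the life of the intracellular domain. Notch receptors are cleaved after ligand binding, and the freed intracellular domain joins the DNA-binding protein RBPJ to activate transcription. The sources used here do not give the promoter that drives the constructs or the share of infected cells. Replicates are biological per the labels, which do not say how separately they were cultured, so the p-values below cover only the spread between the samples at hand.

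WAP domains are short folds held by disulphide bonds, named after whey acidic protein, a milk protein. Elafin inhibits neutrophil elastase and proteinase 3, and transglutaminases fix it to the extracellular matrix through its N-terminal part. SLPI inhibits neutrophil elastase and cathepsin G, and both proteins are secreted by epithelia, where they also act against microbes. WFDC2 is the secreted protein HE4, used as a serum marker of ovarian cancer, and WFDC1 is ps20, a secreted growth inhibitor. The genes for PI3, SLPI, WFDC2, WFDC3, WFDC5 and WFDC12 lie in a cluster on chromosome 20, and WFDC1 lies on chromosome 16.

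Values are log2 signals, whose array medians lay between 5.64 and 5.697. The signals of different probe sets depend on their probes, so levels are compared only within a probe set. On NOTCH1 probe set 223508_at the log2 signal was 8.79 ± 0.04 with NICD, 8.74 ± 0.02 with Notch1 L1601P+∆P and 9.16 ± 0.04 with full-length Notch1, against 6.54 ± 0.20 with vector (SD, n = 3 each). The groups that received a Notch1 construct therefore stood apart from vector on this probe set. On 218902_at the means lay closer together, at 9.72, 9.50 and 9.52 in the same order, against 9.44 with vector. There the NICD arrays (9.64 to 9.83) lay above every vector array (9.38 to 9.50), and the other groups overlapped with vector. All 5 analysed basal mammary markers, of 7 listed, lay above the array median in every group. Among them was the keratin KRT5, at 13.91 with NICD and 13.33 with vector. Of these 5, 2 rose and 2 fell with NICD, as given below. In every group 4 of 7 fibroblast and endothelial markers and 2 of 9 leukocyte markers also lay above the median. A place above the median therefore does not by itself identify the cells.

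PI3 had the widest separation of groups among the 10 probe sets. On 41469_at its log2 signal was 14.65, 14.61 and 14.62 on the NICD arrays. It was 13.92, 13.90 and 13.86 with Notch1 L1601P+∆P and 12.19, 12.31 and 12.18 with full-length Notch1, against 12.09, 11.90 and 11.97 with vector. Every group was clear of its neighbour on this probe set, in the order NICD, Notch1 L1601P+∆P, full-length Notch1 and vector. The step between full-length Notch1 and vector was small beside the other steps. The second probe set, 203691_at, read 14.54, 14.58 and 14.55 with NICD and 13.80, 13.83 and 13.72 with Notch1 L1601P+∆P. In the full-length Notch1 group it read 12.02, 12.10 and 12.08, against 11.93, 11.77 and 11.86 with vector. Its 4 groups fell in the same order and did not overlap either.

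Since PI3 was selected on these signals, its differences are a description and carry no test. PI3 with NICD stood 2.64 ± 0.06 (SE) above vector on 41469_at, a 6.24-fold difference, and 2.70 ± 0.06 above it on 203691_at, a 6.51-fold difference. In the Notch1 L1601P+∆P group it stood 1.91 and 1.93 above vector, or 3.75-fold and 3.82-fold. With full-length Notch1 the differences were 0.24 and 0.21. Both probe sets read PI3 close to the top of the scale with NICD, so these folds may be compressed, which was not tested. In bulk RNA, a larger share of cells that carry a transcript and more transcript per cell cannot be told apart, here and for every gene below.

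**Figure D1:**
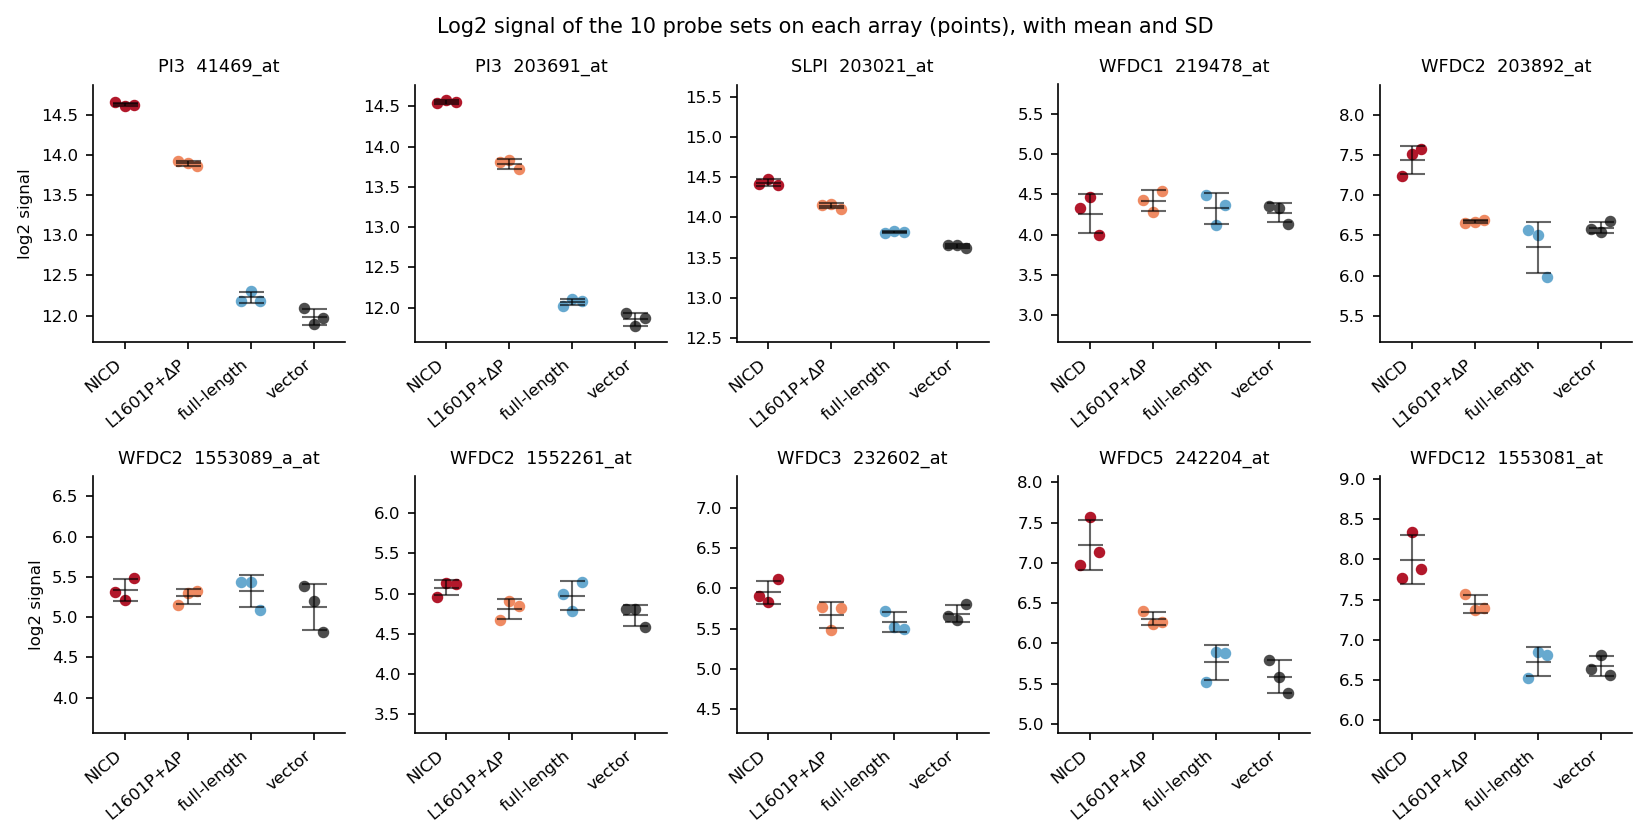
Log2 signal (vertical axis) of the 10 probe sets of elafin, SLPI and the WFDC genes on each array, by group (horizontal axis), with points for arrays and bars for the mean and SD of 3 arrays. Each panel has its own level but spans the same number of log2 units. The PI3 arrays run between 11.77 and 14.65, while the WFDC1 groups overlap between 3.99 and 4.54.

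SLPI rose with NICD and with Notch1 L1601P+∆P. Its log2 signal was 14.41, 14.48 and 14.40 with NICD, 14.16, 14.17 and 14.11 with Notch1 L1601P+∆P and 13.80, 13.83 and 13.82 with full-length Notch1, against 13.65, 13.66 and 13.62 with vector. No 2 groups overlapped, and the order was that of PI3. The differences from vector were 0.79 ± 0.05 (SE) with NICD, a 1.72-fold change, and 0.50 ± 0.05 with Notch1 L1601P+∆P. Their limma adjusted p-values, over all 54613 probe sets that are not Affymetrix controls, were 2.08e-07 and 0.00018. With full-length Notch1 the difference was 0.17 (95% interval 0.06 to 0.29), with an adjusted p of 0.947 and an unadjusted p of 0.0062 in the same limma fit. That difference is called when the variance is allowed to follow intensity with a robust prior (limma adjusted p = 0.00852). Over 18 alternative settings the highest adjusted p of SLPI was 7.26e-05 with NICD against vector and 0.00548 with Notch1 L1601P+∆P against vector.

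WFDC5 and WFDC12, which code for small WAP-domain proteins known from skin epithelium, rose with NICD and with Notch1 L1601P+∆P. WFDC5 read 6.98, 7.57 and 7.13 with NICD and 6.40, 6.25 and 6.27 with Notch1 L1601P+∆P, and 5.52, 5.90 and 5.88 with full-length Notch1, against 5.79, 5.58 and 5.39 with vector. The NICD and Notch1 L1601P+∆P arrays lay above every vector array, while the full-length Notch1 arrays overlapped with vector. WFDC5 rose 3.12-fold with NICD (log2 difference 1.64 ± 0.15, SE, limma adjusted p = 4.76e-06). The rise with Notch1 L1601P+∆P was 0.72 ± 0.15 (limma adjusted p = 0.0272). That call was lost without Notch1 L1601P+∆P replicate 1, 2 or 3 (adjusted p = 0.106, 0.0784 and 0.0669) and without vector replicate 2 or 3 (0.0792 and 0.12). With full-length Notch1 the difference was 0.18 (95% interval −0.15 to 0.51).

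WFDC12 read 7.77, 8.35 and 7.88 with NICD and 7.57, 7.37 and 7.39 with Notch1 L1601P+∆P, and 6.53, 6.85 and 6.81 with full-length Notch1, against 6.64, 6.82 and 6.57 with vector. As for WFDC5, full-length Notch1 and vector overlapped and the other groups stood above both. WFDC12 rose 2.50-fold with NICD (1.32 ± 0.14, limma adjusted p = 1.45e-05) and by 0.77 ± 0.14 with Notch1 L1601P+∆P (limma adjusted p = 0.0098). The second of these calls was lost without Notch1 L1601P+∆P replicate 1 (adjusted p = 0.0534) or vector replicate 3 (0.0531). With full-length Notch1 the difference was 0.06 (95% interval −0.24 to 0.36). NICD replicate 2 gave the highest of the NICD values for SLPI, WFDC5, WFDC12 and PI3 on 203691_at, but not for PI3 on 41469_at or for WFDC2 on 203892_at.

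The WFDC2 probe sets differed among themselves. On 203892_at, its brightest, the log2 signal was 7.24, 7.51 and 7.57 with NICD and 6.66, 6.67 and 6.70 with Notch1 L1601P+∆P, and 6.57, 6.51 and 5.98 with full-length Notch1, against 6.58, 6.54 and 6.68 with vector. The NICD arrays were above all others, and of the 3 Notch1 groups they alone stood clear of vector on the higher side. On that probe set WFDC2 rose 1.79-fold with NICD (0.84 ± 0.13, limma adjusted p = 0.000505). Its difference with Notch1 L1601P+∆P was 0.08 (95% interval −0.21 to 0.37) and with full-length Notch1 −0.25 (−0.53 to 0.04), and neither was called.

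The other WFDC2 probe sets were dimmer than the array median. On 1552261_at the signal was 4.96 to 5.14 with NICD and 4.58 to 4.81 with vector, groups that did not overlap, and it rose by 0.34 ± 0.10 (limma adjusted p = 0.0328). This call was lost with the replicate number as a block (adjusted p = 0.0555). It was also lost without NICD replicate 2 or 3 (0.0955 and 0.0932) or vector replicate 3 (0.137). On 1553089_a_at the arrays overlapped, at 5.21 to 5.49 with NICD and 4.82 to 5.38 with vector, and the difference of 0.20 ± 0.14 was not called (limma adjusted p = 0.366). The transcripts read by these probe sets were not examined.

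The promoter of WFDC2 is shown because WFDC2 rose with NICD and is 1 of the 2 genes with a promoter at hand. The RefSeq table used here, on build GRCh38.p14, held a promoter for 2 of the 7 genes, WFDC2 and WFDC3. The sequence covers the 250 bases before the annotated start, at chr20:45469503-45469752 on the plus strand. Capitals mark the only match to TGGGAA, the core letters bound by RBPJ, searched on both strands and found here as its reverse complement TTCCCA.
WFDC2: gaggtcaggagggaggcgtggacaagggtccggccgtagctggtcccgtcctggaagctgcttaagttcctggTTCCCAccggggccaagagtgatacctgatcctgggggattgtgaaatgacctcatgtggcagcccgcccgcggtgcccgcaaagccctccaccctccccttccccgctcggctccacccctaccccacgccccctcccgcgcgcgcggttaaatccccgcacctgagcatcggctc
The match begins 177 bases before the start. The corresponding WFDC3 window, at chr20:45791884-45792133 on the minus strand, held 0 matches to these letters. Of 35116 RefSeq promoter windows of this length, 20.8% held the motif on either strand, so a match is common and says nothing of binding.

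WFDC3, a protein with several WAP domains, read 5.90, 5.84 and 6.11 with NICD and 5.77, 5.48 and 5.75 with Notch1 L1601P+∆P, and 5.72, 5.52 and 5.50 with full-length Notch1, against 5.65, 5.61 and 5.80 with vector. The NICD arrays were the highest, and the other groups overlapped with each other. The difference of 0.26 ± 0.10 between NICD and vector was not called (limma adjusted p = 0.0949). WFDC1 read 4.33, 4.46 and 3.99 with NICD, against 4.36, 4.33 and 4.14 with vector. Its groups overlapped and the difference was −0.01 (95% interval −0.29 to 0.26). WFDC1 was below the array median in every group, so its low signal limits what could be seen.

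Counts over the 8 probe sets of the genes other than PI3 are set beside the background of the whole array. The genes were chosen with earlier results of these data known, so these counts, and those between the Notch1 groups below, are a description. The p-values of the genes carry the same limit. The share of all probe sets at an unadjusted p under 0.05 was not counted. Counts at that threshold, here and below, therefore have no background beside them. With NICD against vector, 5 of 8 rose and 0 fell by limma, and 6 had an unadjusted p under 0.05. WFDC2 held 3 of the 8 probe sets, and 4 of the 6 genes had a higher call. Of all probe sets, 6.75% were called higher and 12.6% lower in that comparison. With Notch1 L1601P+∆P against vector 3 of 8 rose and 0 fell, and 3 had an unadjusted p under 0.05, where 1.1% of all probe sets were called higher and 1.29% lower. The genes called there were SLPI, WFDC5 and WFDC12. Their deviations from group means over the 12 arrays had Pearson correlations of 0.74 to 0.87. The median over all 45 pairs of probe sets was 0.01. The 3 calls are therefore not separate observations. With full-length Notch1 against vector limma called 0 of 8, and 0.00732% of all probe sets were called higher and 0.00366% lower. Of the 8, 2 had an unadjusted p under 0.05, SLPI and WFDC2 on 1552261_at (limma unadjusted p = 0.0062 and 0.0347). The median difference of the 8 was 0.56, 0.14 and 0.11 in these comparisons, and that of all probe sets −0.02, −0.01 and −0.01. The 3 comparisons share the vector arrays. Cyclic loess scaling moved the share of called probe sets that were higher to 49.1% with NICD, where it was 34.9%, and to 57.8% with Notch1 L1601P+∆P, where it was 46.1%.

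**Figure D2:**
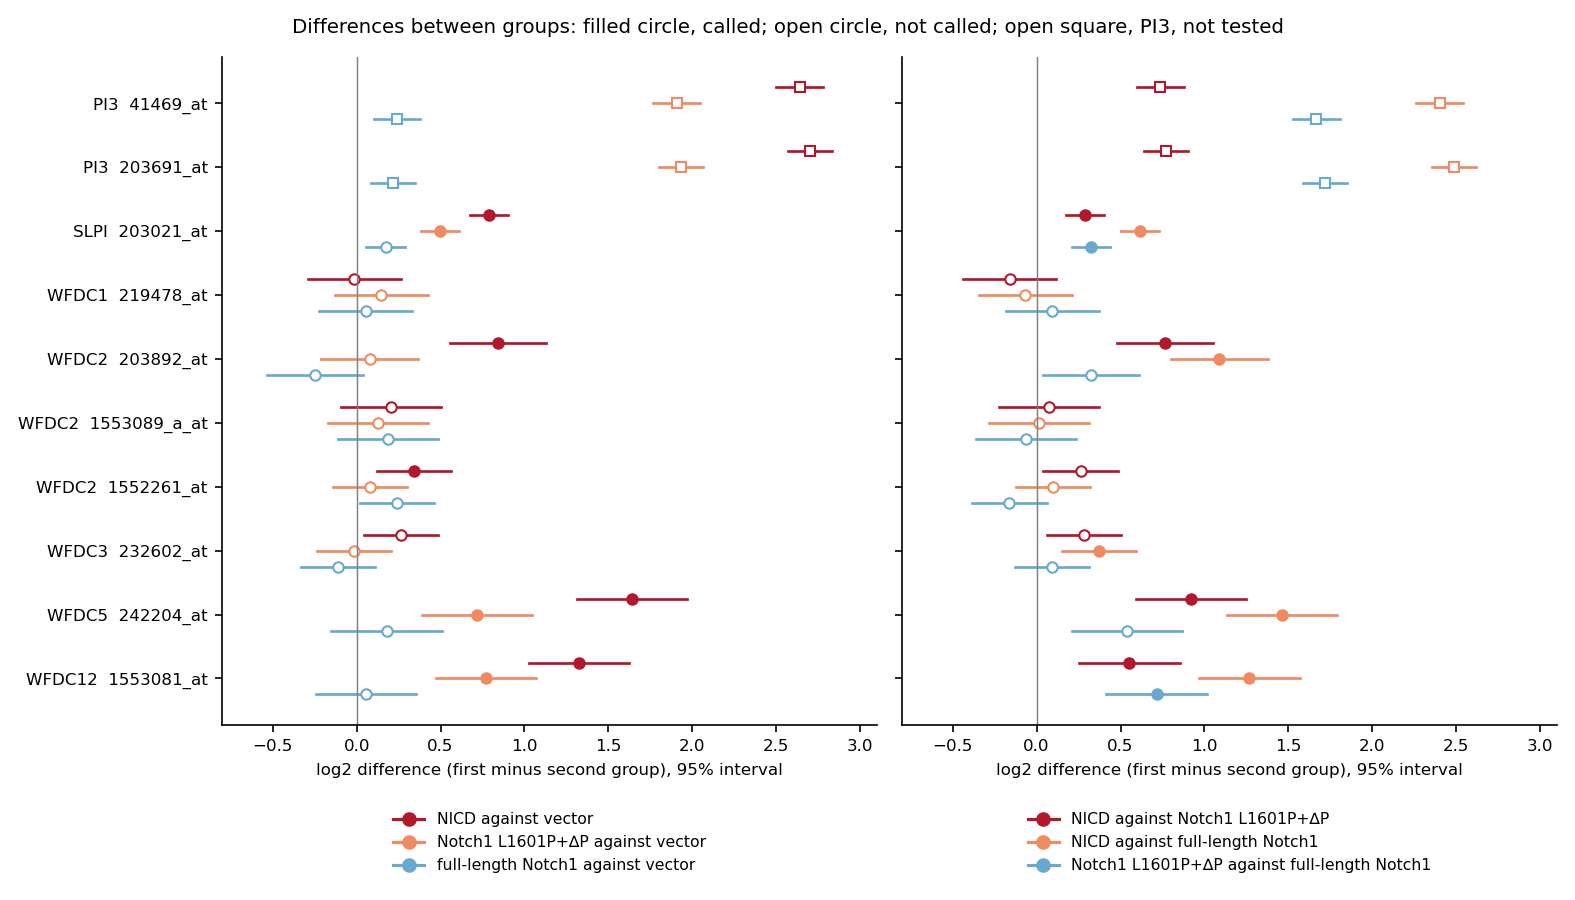
Log2 difference (horizontal axis, first minus second group) of each probe set (vertical axis) in 6 comparisons, with 95% intervals from the limma fit. Filled circles passed an adjusted p of 0.05, open circles did not, and open squares are PI3, which was not tested. SLPI, WFDC5 and WFDC12 were called against vector with NICD and with Notch1 L1601P+∆P, and WFDC1 in no comparison.

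The Notch1 groups also differed from each other. Between NICD and Notch1 L1601P+∆P, PI3 stood 0.74 and 0.77 higher with NICD on its probe sets, again without a test. SLPI was 0.29 ± 0.05 higher with NICD (limma adjusted p = 0.00243), WFDC5 0.92 ± 0.15 (0.00113), WFDC12 0.55 ± 0.14 (0.0179) and WFDC2 on 203892_at 0.76 ± 0.13 (0.0017). These 4 of 8 probe sets were called higher and 0 lower, 6 had an unadjusted p under 0.05, and 6.04% of all probe sets were called higher and 7.01% lower. Cyclic loess scaling moved the share of calls that were higher to 55.1%, where it was 46.3%. The WFDC12 call was lost without Notch1 L1601P+∆P replicate 2 (adjusted p = 0.0657) or 3 (0.0613). On the other WFDC2 probe sets the difference was 0.26 (1552261_at) and 0.08 (1553089_a_at), and neither was called.

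Between NICD and full-length Notch1, PI3 stood 2.40 and 2.49 higher with NICD. Of the 8 tested probe sets 5 were higher and 0 lower by limma, against 7.14% of all probe sets called higher and 11.1% lower. They were SLPI (0.61 ± 0.05), WFDC5 (1.46 ± 0.15), WFDC12 (1.27 ± 0.14), WFDC2 on 203892_at (1.09 ± 0.13) and WFDC3 (0.37 ± 0.10, limma adjusted p = 0.0216). The other WFDC2 probe sets did not show this rise, with differences of 0.10 (1552261_at) and 0.02 (1553089_a_at), not called. The WFDC3 call was lost without NICD replicate 3 (adjusted p = 0.0909) or full-length Notch1 replicate 2 (0.0741) or 3 (0.0852). Cyclic loess scaling raised the share of calls that were higher to 51.2%, where it was 39.2%.

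Between Notch1 L1601P+∆P and full-length Notch1, PI3 stood 1.67 and 1.72 higher in the mutant receptor's group. SLPI was higher there by 0.33 ± 0.05 (limma adjusted p = 0.00637) and WFDC12 by 0.71 ± 0.14 (0.0212). These were 2 of 8 probe sets, with 0 lower and 4 at an unadjusted p under 0.05, where 0.925% of all probe sets were called higher and 0.709% lower. Here the loess share of calls that were higher was 67.1%, where it was 56.6%. WFDC12 lost its call without Notch1 L1601P+∆P replicate 1, 2 or 3 (adjusted p = 0.098, 0.0615 and 0.0543) and without full-length Notch1 replicate 1 or 3 (0.0782 and 0.0583). WFDC5 differed by 0.54 ± 0.15 (limma adjusted p = 0.116) and was called with the intensity trend and robust prior (0.0384). The WFDC2 difference on 203892_at was 0.32 (95% interval 0.04 to 0.61) and was not called. On 1552261_at and 1553089_a_at it was −0.16 and −0.06, also not called.

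PI3 and SLPI lay close to the top of the measured range. PI3 on 41469_at ranked 15 to 18 from the brightest probe set on the NICD arrays and 165 to 183 on the Notch1 L1601P+∆P arrays. Its rank was 655 to 748 with full-length Notch1, against 778 to 933 with vector. The distance to the brightest signal of the same array was 0.32 to 0.39 log2 units with NICD and 1.07 to 1.13 with Notch1 L1601P+∆P, against 2.92 to 3.11 with vector. SLPI was within 0.51 to 0.61 of the top with NICD, 0.83 to 0.88 with Notch1 L1601P+∆P and 1.34 to 1.36 with vector. Whether compression near the top reduced either gene's differences was not tested.

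The differences of PI3 and SLPI were set beside those of probe sets of similar vector brightness. PI3 was selected on its high signal, so its place among them follows in part from that choice and is a description only. Within 0.5 log2 units of the vector mean of 41469_at there were 703 probe sets, and with NICD 1 of them, the other PI3 probe set, had a larger difference from vector. The same held with Notch1 L1601P+∆P, while 5 were larger with full-length Notch1. Within 0.5 of the vector mean of SLPI there were 193 probe sets, of which 3 had a larger difference with NICD. Those were the protease inhibitor TIMP1 (0.99), the calcium-binding protein S100A8 (1.0) and 1 probe set without a symbol (0.91), named after their values were seen.

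**Figure D3:**
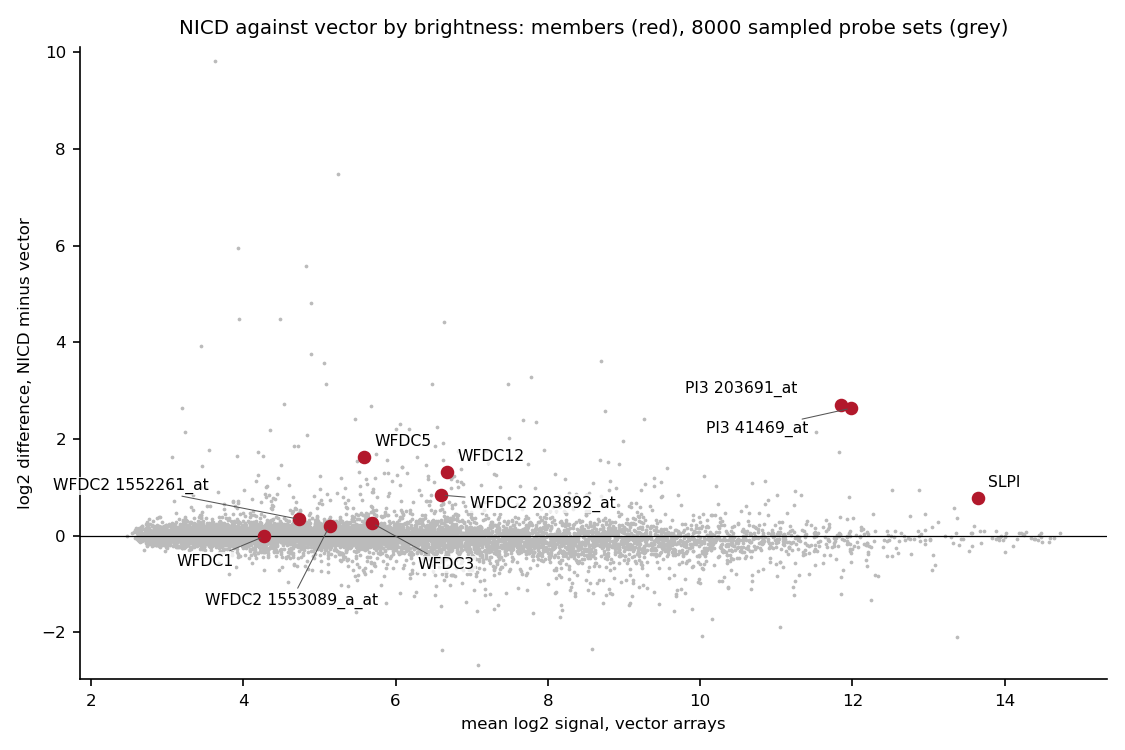
Log2 difference between NICD and vector (vertical axis) against the mean log2 signal on the vector arrays (horizontal axis) for the 10 probe sets in red and a random sample of 8000 of all probe sets in grey. PI3, with differences of 2.64 and 2.70, and SLPI, with 0.79, lie above most bright probe sets.

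The chromosome 20 cluster holds further genes between the ones described. From WFDC5 to WFDC3 the RefSeq table lists 26 genes. Of these, 22 were matched by symbol or gene identifier to a probe set with 1 symbol. WFDC5, WFDC12 and PI3 are the first genes in that order, SLPI comes after the semenogelin genes SEMG1 and SEMG2, and WFDC2 and WFDC3 lie further on. Of the 16 genes in the interval that are not among the 7, limma called 1 higher and 1 lower with NICD against vector, and 1 in each direction had an unadjusted p under 0.05. The gene that rose was WFDC10B (0.34, adjusted p = 0.0318), another WAP-domain gene, and the gene that fell was SDC4 (−0.48, adjusted p = 0.000283), a cell surface proteoglycan. WFDC10B was dim, at 4.25 with NICD and 3.91 with vector, below the array median. The differences of the 16 genes ran from −0.48 to 0.34 with a median of 0.00. For Notch1 L1601P+∆P they ran from −0.27 to 0.16, and limma called 0, with 0 at an unadjusted p under 0.05. Of 30 measured genes in a wider list of neighbours, which includes SDC4, 2 rose and 4 fell with NICD, where 8.46% of all genes were called higher and 15.8% lower, so the counts in the cluster and its neighbours lay near or below the background.

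**Figure D4:**
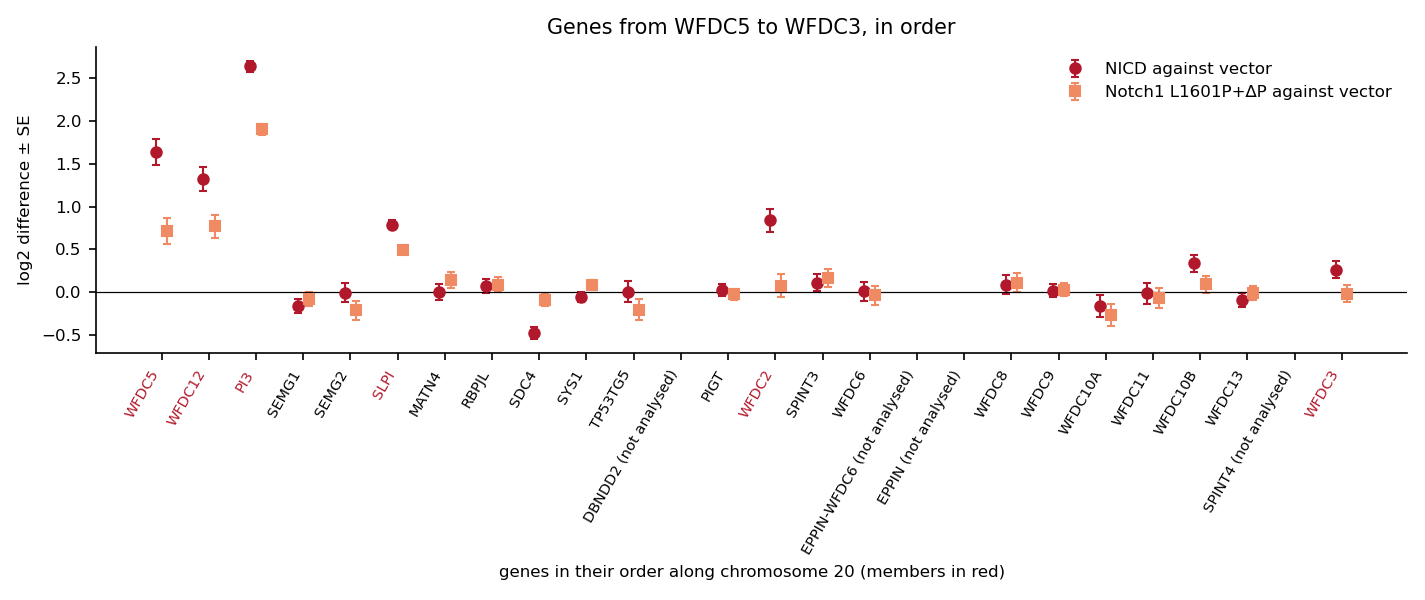
Log2 difference from vector with its SE (vertical axis) for the genes from WFDC5 to WFDC3 in their order along chromosome 20 (horizontal axis), with NICD as circles and Notch1 L1601P+∆P as squares. WFDC5, WFDC12 and PI3 lie side by side with differences of 1.64, 1.32 and 2.64 with NICD, while genes outside the 7 stay between −0.48 and 0.34.

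Genes with a pattern like that of PI3 or SLPI were ranked by Pearson correlation over the 12 arrays, among genes whose group means span at least 1 log2 unit. The arrays fall into 4 groups, so the values mostly show how alike the group means are, and they carry no test. For PI3 on 41469_at the highest of 585 genes were FABP5 (0.996), an epidermal fatty acid binding protein, and SERPINA3 (0.996), a secreted serpin. They were followed by IGFL1 (0.995), CCN1 (0.994), a matrix-associated signalling protein, and IL1RL1 (0.993), the receptor of interleukin 33. As many as 62 of the 585 genes had a correlation over 0.95, so the pattern is a common one here. SERPINA3 averaged 14.45 with NICD, 13.28 with Notch1 L1601P+∆P and 11.36 with full-length Notch1, against 10.81 with vector.

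For SLPI the highest of 586 genes were OLFM4 (0.994), a secreted glycoprotein of epithelia, SERPINA3 (0.993), SLC46A3 (0.990), GAS1 (0.990) and LURAP1L (0.989). OLFM4 averaged 13.43 with NICD, 10.18 with Notch1 L1601P+∆P and 5.86 with full-length Notch1, against 3.62 with vector. Its group means ran in the same order as those of SLPI. A correlation over 0.95 was found for 95 of the 586 genes. SERPINA3 is the gene that both lists name.

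Related genes were counted from lists of the pathway, on the brightest probe set of each gene. Among all 19775 genes so measured, 8.46% were called higher and 15.8% lower with NICD against vector, and 1.64% and 1.75% with Notch1 L1601P+∆P. The proteases that elafin and SLPI act on are made by leukocytes and mast cells. They gave 0 limma calls among 5 genes with NICD, and 1 was lower at an unadjusted p under 0.05. With Notch1 L1601P+∆P 0 were called, and 2 were higher at that threshold. ELANE, neutrophil elastase, read 3.69 ± 0.17 with NICD and 3.77 ± 0.06 with vector, and PRTN3, proteinase 3, read 3.61 ± 0.17 and 3.93 ± 0.12 in the same order (SD, n = 3 each). CTSG, cathepsin G, read 6.67 ± 0.09 with NICD and 6.61 ± 0.16 with vector. Neither ELANE nor PRTN3 was above the array median, while CTSG was. Of 9 other WAP-domain genes, 1 rose with NICD, the WFDC10B described above, and 0 fell.

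Of 6 transglutaminases, the enzymes that cross-link elafin, 2 rose and 1 fell with NICD. TGM2, the tissue transglutaminase, rose by 1.06 ± 0.11 and TGM5 by 0.33, while TGM1, the keratinocyte enzyme of the cornified envelope, fell by 0.81 on the log2 scale. TGM2 averaged 7.76 with NICD and 6.70 with vector, and TGM1 averaged 10.16 with NICD and 10.98 with vector. For Notch1 L1601P+∆P limma called 0 of the 6, and 3 had an unadjusted p under 0.05. Members of this list thus moved in both directions with NICD.

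Of 14 protease inhibitors outside the serpin and WAP families, 4 rose and 2 fell with NICD. CST3, cystatin C, rose by 1.51 ± 0.07 with NICD and by 0.56 ± 0.07 with Notch1 L1601P+∆P. SPINK6, an inhibitor of skin kallikreins, rose by 1.03 ± 0.09 and 0.41 ± 0.09 in the same comparisons. These were the inhibitors of the list that rose in both. A2ML1 rose by 0.52 and RECK, a membrane-bound inhibitor of matrix metalloproteinases, by 0.32 with NICD. CST6, cystatin E/M, fell by 0.64 and CSTA, cystatin A, fell by 0.31.

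Of 16 epithelial antimicrobial proteins, 5 rose and 1 fell with NICD. S100A7, psoriasin, rose by 2.80, S100A9 by 1.15, S100A8 by 1.0 and LTF, lactoferrin, by 0.73, while RNASE7, a skin antimicrobial ribonuclease, fell by 1.13. Against vector, Notch1 L1601P+∆P gave 0 limma calls among these 16 in the higher direction, with 4 higher at an unadjusted p under 0.05, and RNASE7 fell by 0.70 (adjusted p = 0.0173). Of 7 inflammatory cytokines, which include known inducers of elafin and SLPI, IL6 rose by 3.57 and IL1B by 0.51 with NICD, and IL1A fell by 0.72. IL1B rose by 0.80 with Notch1 L1601P+∆P. The median difference with NICD was 0.12 over the transglutaminases, 0.03 over the inhibitors, 0.08 over the antimicrobial proteins and 0.26 over the cytokines, against −0.02 over all genes.

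**Figure D5:**
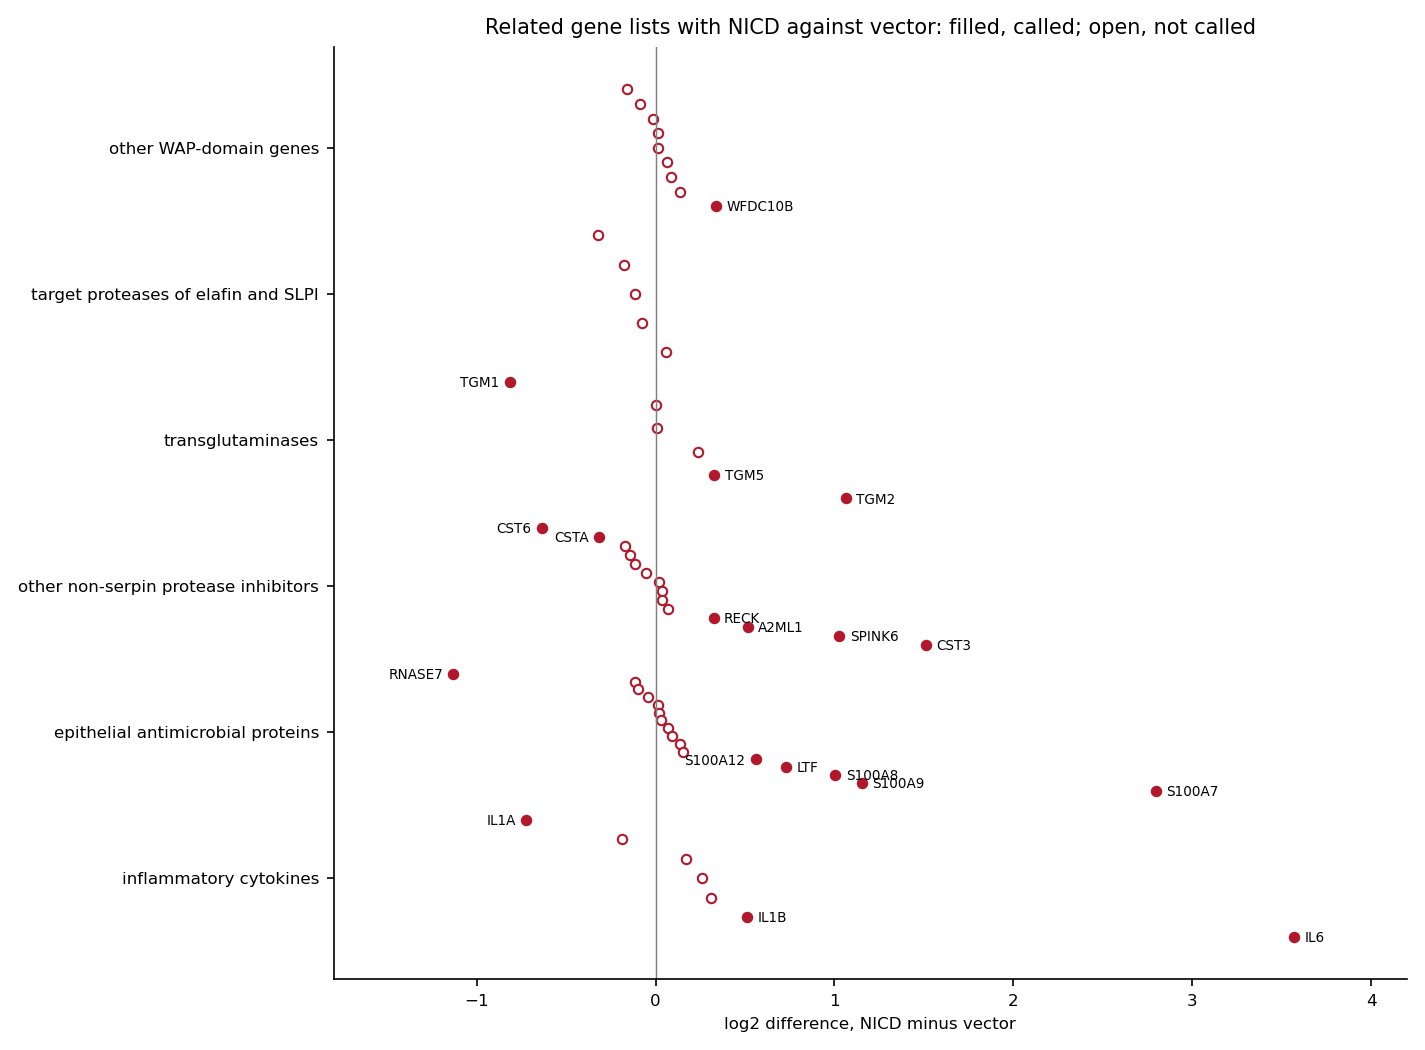
Log2 difference between NICD and vector (horizontal axis) for each gene of 6 related lists (vertical axis), filled where limma called it at an adjusted p of 0.05 and open where it did not. IL6 at 3.57 and S100A7 at 2.80 lie farthest to the right, and the target proteases hold no filled point.

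Markers of other cells were measured beside these results. Of 9 leukocyte markers, limma called 0 with NICD against vector, and 1 was lower at an unadjusted p under 0.05. With Notch1 L1601P+∆P 0 were called, and 2 were higher at that threshold. The leukocyte antigen PTPRC read 3.63 with NICD and 3.63 with vector, and 2 of the 9 lay above the array median in every group. The summed linear signal of all 9 was 318 to 338 with NICD and 317 to 319 with vector. It was 346 to 358 with Notch1 L1601P+∆P, above every vector array, and 301 to 363 with full-length Notch1. Of 7 fibroblast and endothelial markers 1 rose with NICD, the matrix proteoglycan DCN (11.21 against 10.85 with vector). The sum of the 7 was 2752 to 2929 with NICD and 2242 to 2382 with vector. DCN was the brightest of them and made up most of that linear sum. The sum of the 5 basal markers was 34243 to 37193 with NICD, 34972 to 35899 with Notch1 L1601P+∆P and 30201 to 31184 with full-length Notch1, against 26580 to 28754 with vector. KRT5 and KRT14, basal keratins, rose by 0.58 and 0.57 with NICD, while ITGA6 fell by 1.07 and EGFR fell by 0.72. Of 4 markers of any epithelium, KRT8 rose by 0.37 with NICD, and EPCAM and KRT18 fell by 0.74 and 0.24. Their sum was 10637 to 11543 with NICD, 11008 to 11704 with Notch1 L1601P+∆P and 11873 to 12235 with full-length Notch1, against 12129 to 12353 with vector. The part of the epithelial, basal, leukocyte and fibroblast markers in the differences of PI3, SLPI and the WFDC genes was not tested.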

How the data were processed

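Messenger RNA was measured on 12 Affymetrix arrays. The deposited values are log2 signals, and per the submitters' processing notes RMA and limma were used by the authors, with versions not given in the sources used here. Quantile normalization in RMA hides any shift that most genes share. Precision is limited by the 3 arrays per group.

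Gene symbols came from the platform annotation, where 41091 probe sets had 1 symbol, 1801 several and 11721 none, and 62 were controls. The 54613 other probe sets went into 1 limma model (version 3.58.1, R 4.3.3, with eBayes) of the group means over all 12 arrays, which left 8 residual degrees of freedom. Calls used a Benjamini-Hochberg adjusted p under 0.05 within each comparison, two-sided. Intervals are 95% intervals of the fit. The script was tested on simulated data. For related lists, the brightest probe set of a gene was used.

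The members and lists were chosen with earlier results of these data known. All members are named. From each list up to 4 called genes per direction with the largest NICD difference could be named, target proteases whatever their call, and the 5 genes most like PI3 and SLPI. Genes named outside this rule, among them PTPRC, KRT5 and EPCAM, are markers given as checks.

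Titles number the replicates 1 to 3 in each group. Deviations from group means of arrays with the same number correlated between −0.30 and 0.31 over the 18 pairs, so the numbers were not taken to pair samples. Alternatives were this number as a block, a filter on dim probe sets, 1 probe set per gene, cyclic loess, a trend with a robust prior, the compared groups alone, and each replicate left out.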

Additional observations from a re-analysis of the deposited data

How the results depend on the processing

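No called difference of the genes described changed direction under the alternatives run, which were 18 for most results. With 1 probe set per gene, 19775 features were tested in place of 54613. Calls then numbered 5460 with NICD against vector (10565 over all probe sets), 3923 with NICD against Notch1 L1601P+∆P (7124) and 5346 with NICD against full-length Notch1 (9958). These were fewer calls but a larger share of the features tested. With Notch1 L1601P+∆P against vector (1307 calls), the trend with a robust prior gave 2318, the 2 groups alone 820, and leaving out 1 replicate 711 to 1426, with 1 to 3 of the 8 tested probe sets called. With Notch1 L1601P+∆P against full-length Notch1 (892 calls), the filter on dim probe sets gave 1366, the trend with a robust prior 1732, the 2 groups alone 521, and leaving out 1 replicate 439 to 959, with 1 or 2 of the 8 called. With full-length Notch1 against vector (6 calls) the dim filter gave 10, and the trend with a robust prior gave 29 and called 1 of the 8, SLPI. The cause of these changes in the counts was not tested. The replicate number as a block gave 9775, 968, 6, 6248, 9068 and 604 calls for NICD, Notch1 L1601P+∆P and full-length Notch1 against vector, NICD against Notch1 L1601P+∆P and full-length Notch1, and Notch1 L1601P+∆P against full-length Notch1. Among the 8 tested probe sets the block ended the WFDC2 call on 1552261_at and no other. Of the same-number pairs 2 of 18 correlated over 0.1, and 3 of 12 arrays correlated best with their own number. PI3 with NICD stood 2.60 to 2.71 and 2.66 to 2.77 above vector over all alternatives on its probe sets. Dim signals, as for WFDC1, limit what the arrays can show.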
